A study of Mus musculus with 5 samples.

Results

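The retinoic acid genes examined here were the 3 retinaldehyde dehydrogenases Aldh1a1, Aldh1a2 and Aldh1a3, the retinoic acid binding proteins Crabp1 and Crabp2, the nuclear receptors Rara, Rarb and Rarg, and the clearing enzyme Cyp26b1. They were chosen by symbol, with earlier results of these data known. Rows of the deposited files were matched to these symbols through their RefSeq identifiers, and the values of all transcripts with the same symbol were added. This gave 9 genes from 18 transcripts, among 24843 genes from 40201 transcripts in all. Levels are given in FPKM, fragments scaled to the length of the transcript and the size of the library, which can be compared between genes because length is divided out.

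RNA-seq was read in 2 cell types of mouse, with C57BL/6 given as the strain of each. Neural stem cells (NSCs, 2 replicates) were primary cells from embryonic cortex at 5 to 8 passages, grown as a monolayer on poly-l-ornithine and laminin in neural basal medium with EGF, bFGF, heparin and B27. STO cells (3 replicates) are a line of SIM embryonic fibroblasts, resistant to thioguanine and ouabain, taken after more than 30 passages and grown in high-glucose DMEM with fetal bovine serum. Neither culture was given a retinoid as a treatment, and the retinoid content of the media is not given in the sources used here. Cell type, medium, serum and passage therefore cannot be told apart in any difference below. Nothing in the labels says that replicates came from separate cultures, so p-values measure the spread between these samples, which may be technical.

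Retinoic acid is made from vitamin A (retinol) in 2 oxidation steps, first to retinaldehyde and then, by the ALDH1A enzymes, to the acid. The acid is carried in the cytoplasm by CRABP proteins, binds retinoic acid receptors (RARs) that sit on DNA as partners of retinoid X receptors (RXRs), and is broken down by CYP26 enzymes. In the embryonic brain it is known as a signal for patterning and neuronal differentiation, and in mesenchyme it takes part in limb, skeletal and craniofacial development.

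The depth behind the values was 15223341 to 22271895 fragments per sample, as implied by the confidence intervals that Cufflinks deposited beside each FPKM value. Pearson's r across genes was 0.994 between the NSC replicates and 0.994 to 0.995 between STO replicates, and no value above 0 was identical between samples. All 8 neural stem cell markers, among them Sox2, Sox1, Nes, Pax6, Olig2, Fabp7 and Prom1, averaged 1 FPKM or more in NSCs, where they summed to 3827 to 4043 FPKM per sample, against 0.0442 to 0.0724 in STO cells, where Sox2, Sox1, Pax6, Olig2 and Fabp7 were listed at 0. The 8 fibroblast markers summed to 2664 to 2799.6 FPKM in STO cells, 7 of them with a mean of at least 1, and to 11.7 to 12.0 in NSCs. S100a4 was the largest part of the fibroblast sum in STO cells, at 1202 to 1448 FPKM. Fabp7 was the largest part of the neural stem cell sum in NSCs, at 2783 and 3041 FPKM. The meningeal fibroblast list, which shares 3 collagens with the fibroblast list, summed to 1100.3 to 1171 FPKM in STO cells and to 2.68 to 3.03 in NSCs. In NSCs Col3a1, Dcn, Lum and Foxd1 were at 0 and Foxc1, at 2.87 and 2.48 FPKM, made up most of the sum. Markers of other neural cells were also higher in NSCs, with astrocyte genes at 64.5 FPKM against 0.150 to 0.219, oligodendrocyte genes at 114 to 117 against 0.961 to 1.14 and neuronal genes at 9.40 to 9.93 against 0.00849 to 0.0463. Pericyte genes summed to 25.2 to 26.7 FPKM in NSCs and 4.15 to 4.48 in STO cells, nearly all of it from Cspg4, with Rgs5 and Kcnj8 at 0.248 FPKM or less, endothelial genes to 0.503 to 0.534 and 0.133 to 0.237, choroid plexus genes to 0.0707 to 0.263 and 0 to 0.0445, and genes of microglia and macrophages to 0 to 0.0390 and 0.219 to 0.394. The part of such cells in the retinoid levels was not tested, and in bulk RNA fewer cells of a type and less RNA per cell cannot be told apart.

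Rarg and Rarb were receptors with large differences between the cell types, and their start sites are shown first because the deposited rows separate transcripts by them. The sequences are the 250 bases before the start of the Rarb transcripts NM_011243 and NM_001289762, and before each of the 2 starts of Rarg. They come from the RefSeq promoter table (GRCm38.p6) and were found unchanged in mm9, the build of the files, at the first base of the deposited transcripts. All 3 lie on the minus strand and are written 5′ to 3′ toward the start, at chr14:17407991-17408240 for Rarb, chr15:102087954-102088203 for the upstream start of Rarg (NM_011244) and chr15:102076932-102077181 for its downstream start (NM_001042727).
Rarb: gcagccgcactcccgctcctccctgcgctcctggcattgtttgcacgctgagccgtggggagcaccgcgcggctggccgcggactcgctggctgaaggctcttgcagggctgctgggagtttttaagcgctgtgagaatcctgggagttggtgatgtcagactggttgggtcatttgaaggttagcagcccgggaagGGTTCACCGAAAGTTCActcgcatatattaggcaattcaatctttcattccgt
Rarg upstream: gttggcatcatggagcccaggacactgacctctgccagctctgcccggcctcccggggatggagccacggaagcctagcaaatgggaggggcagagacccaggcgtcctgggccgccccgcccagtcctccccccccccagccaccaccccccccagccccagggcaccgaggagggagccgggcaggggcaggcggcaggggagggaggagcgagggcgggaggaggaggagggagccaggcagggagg
Rarg downstream: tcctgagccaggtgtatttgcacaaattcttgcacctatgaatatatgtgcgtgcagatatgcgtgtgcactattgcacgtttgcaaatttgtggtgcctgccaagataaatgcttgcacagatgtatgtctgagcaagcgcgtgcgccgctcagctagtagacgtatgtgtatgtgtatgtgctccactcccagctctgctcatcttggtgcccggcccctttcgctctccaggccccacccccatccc

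Capitals mark a retinoic acid response element of the kind named DR5, a direct repeat with 5 bases between its half-sites. A half-site was AGGTCA or one of its variants (AGTTCA; also GGGTCA; also GGTTCA). This promoter of Rarb is the textbook example of such an element. It began 53 bases and ended 37 bases before the start. Direct repeats with 1, 2 or 5 bases between half-sites were searched on both strands, so that a repeat of 1 spacing could overlap with another. Promoter windows (250 bases before to 50 after a start) were found for 7 of the 9 genes, 12 windows in all, and for Aldh1a3 and Crabp2 none was used. The Rarb element was the only match in these 12. They leave out some deposited starts, among them those of Rara NM_001176528 and of Rarb NM_001289760 and NM_001289761. A window each of Aldh1a1 and Rara lies at no deposited start. Of all 32851 windows of the table, 32 (0.0974%) held a DR5, 88 (0.268%) a DR2 and 73 (0.222%) a DR1. The GC content of the 250 bases was 74.4% at the upstream and 52.4% at the downstream start of Rarg. These are matches of letters and no binding was measured.

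Cell types were compared with limma on log2(FPKM + 1), with Benjamini-Hochberg adjustment over the 12277 genes whose mean reached 1 FPKM in either cell type. Differences are given as STO minus NSC on this scale, which understates the change of low genes. Of these 12277 genes 85.7% passed the threshold, 41.9% as higher and 43.7% as lower in STO cells, so passing it sets no gene apart, and 38.4% also had an absolute difference of 1 or more, 17.1% as higher and 21.3% as lower. Of the 9 retinoid genes, 6 were above the FPKM minimum. Rara, Rarg and Cyp26b1 were higher in STO cells, Aldh1a3 and Rarb were lower, and Aldh1a1 did not pass. Aldh1a2, Crabp1 and Crabp2 lay below the minimum in each cell type. The minimum admits a gene through the cell type where it is higher, which favours genes that differ, so these counts say nothing about the genes as a group. The median difference was 0.27 over the 6 genes and -0.023 over all genes tested.

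**Figure D1:**
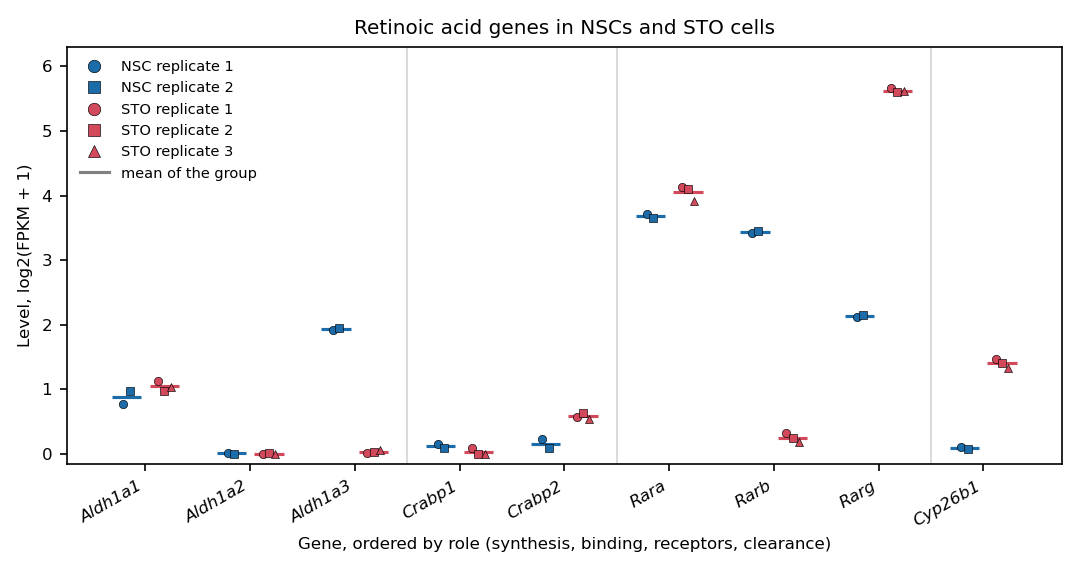
Level of each retinoid gene as log2(FPKM + 1) on the vertical axis, with a point per sample and a bar at the mean of each cell type (NSC, n = 2, and STO, n = 3). Rarb and Aldh1a3 stand higher in both NSC replicates, Rarg and Cyp26b1 in all 3 STO replicates, and Aldh1a2 and Crabp1 lie near 0 in every sample.

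Rarg, a receptor known for its role in cartilage, skin and undifferentiated cells, lies on chromosome 15 (mm9, 102065369 to 102087953, minus strand). It was at 3.37 and 3.43 FPKM in the NSC replicates and at 49.6, 47.7 and 47.9 FPKM in the STO replicates. The samples of the cell types were far apart, and the ratio of the mean levels was 14.3, between 13.9 and 14.7 for any pair of an STO with an NSC sample. The difference was 3.49 ± 0.049 (SE), with an adjusted p of 1.2e-08 in limma. In STO cells Rarg had a higher level than 93.5% of all genes, and in NSCs than 61.4%.

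Rarg has starts that lie 11022 bases apart, and the deposited rows gave a different transcript to each. The downstream transcript NM_001042727 was at 3.37 and 3.43 FPKM in NSCs and at 31.1, 29.4 and 28.7 FPKM in STO cells. The upstream transcript NM_011244 was listed at 0 in both NSC replicates and stood at 18.5, 18.3 and 19.2 FPKM in STO cells. In NSCs the whole Rarg level was thus assigned to the downstream start, while in STO cells 61.4% ± 1.4 (SD, n = 3) was assigned to it. When transcripts were tested singly, each rose in STO cells, by 2.80 ± 0.052 (SE, adjusted p = 3.0e-06 in limma) for the downstream and by 4.30 ± 0.051 (SE, adjusted p = 1.2e-06) for the upstream transcript, beside 77.2% of 16244 transcripts called, 38.1% as higher and 39.0% as lower. The transcripts share most of their exons, and the split between them is an estimate by Cufflinks from the fragments that fall on their own first exons or junctions.

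Rarb, which is known as a receptor gene that is itself induced by retinoic acid, lies on chromosome 14 (17263354 to 17914845, minus strand). It was at 9.71 and 9.93 FPKM in NSCs and at 0.248, 0.187 and 0.132 FPKM in STO cells. No STO sample came near an NSC sample, and the ratio of the means was 52.0 in favour of NSCs, between 39.2 and 75.0 over pairs of samples. The difference was -3.19 ± 0.058 (SE, adjusted p = 3.1e-08 in limma). The STO values rested on few fragments, 13.8, 12.0 and 13.0 as implied by the intervals, against 589.8 and 641.9 in NSCs.

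All of the Rarb level in NSCs was assigned by Cufflinks to the start printed above, which has the DR5 element before it. As for Rarg, this split between transcripts is an estimate. The transcripts of this start, NM_011243 and NM_001289762, were at 7.514 and 7.202 FPKM and at 2.197 and 2.730 FPKM in the NSC replicates. The transcripts of the far upstream start, NM_001289760 and NM_001289761, were listed at 0 in both. In STO cells NM_011243 was listed at 0 in all 3 replicates. NM_001289762 was at 0.248 and 0.187 FPKM in STO replicates 1 and 2 and at 0 in replicate 3, where the level of 0.132 FPKM was assigned to NM_001289761. The choice of transcript in STO cells thus differed between replicates at this depth. Singly, NM_011243 was lower in STO cells by 3.06 and NM_001289762 by 1.60 on the log2(FPKM + 1) scale (SE 0.059 and 0.14, adjusted p = 3.3e-06 and 0.00038 in limma).

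Rara, the most widely expressed of the receptors, lies on chromosome 11 (98799010 to 98836256, plus strand). Its level was 12.2 and 11.6 FPKM in NSCs and 16.5, 16.1 and 14.2 FPKM in STO cells. All STO samples were above both NSC samples, by a ratio of the means of 1.31, and STO replicate 3 was nearest to the NSCs. The difference of 0.36 ± 0.077 (SE) had an adjusted p of 0.0044 in limma, which was 0.067 without NSC replicate 2 and between 0.0014 and 0.046 without any other single replicate, and 0.15 with its largest transcript in place of the sum. The main transcript NM_009024 was at 10.3 and 9.39 FPKM in NSCs and at 12.2, 12.3 and 9.82 FPKM in STO cells, and did not pass on its own (0.19 ± 0.12, SE, 95% interval -0.11 to 0.50, adjusted p = 0.19 in limma). The shorter transcript NM_001176528, which starts farther downstream, was at 1.87 and 2.23 FPKM in NSCs and at 4.31, 3.82 and 4.34 FPKM in STO cells (0.76 ± 0.088, SE, adjusted p = 0.0012 in limma). NM_001177302 and NM_001177303 were listed at 0 in every sample.

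Seen together, the 3 receptor genes came to 25.2 and 25.0 FPKM in NSCs and to 66.4, 64.0 and 62.2 FPKM in STO cells. In NSCs Rara made up 47.4% ± 1.2 (SD, n = 2), Rarb 39.1% ± 0.91 and Rarg 13.5% ± 0.26. In STO cells Rarg made up 75.4% ± 1.4 (SD, n = 3), Rara 24.3% ± 1.3 and Rarb 0.293% ± 0.080. The order of levels in NSCs was Rara, Rarb, Rarg, and in STO cells Rarg, Rara, Rarb, and neighbours in either order were farther apart than the spread of their replicates.

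**Figure D2:**
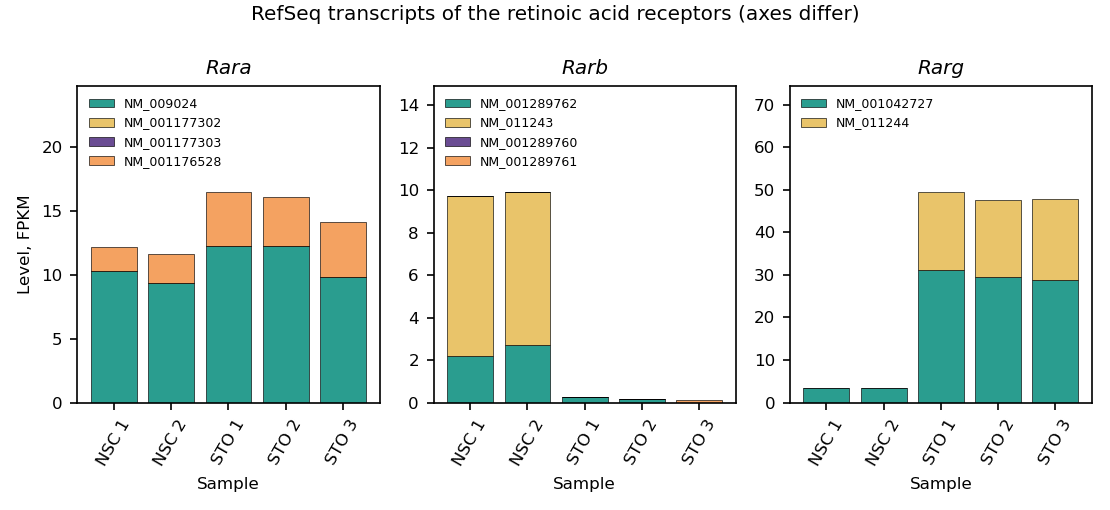
Stacked FPKM of the RefSeq transcripts of Rara, Rarb and Rarg in each sample, with a vertical axis from 0 that differs between panels. The NSC bars of Rarg consist of NM_001042727 alone while those of STO cells also hold 18.3 to 19.2 FPKM of NM_011244, and the Rarb bars are 9.71 and 9.93 FPKM in NSCs and at most 0.248 FPKM in STO cells.

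Retinoid X receptors are the partners with which RARs bind DNA. Rxra was at 4.34 and 4.13 FPKM in NSCs and at 21.3, 21.4 and 21.0 FPKM in STO cells, a ratio of the means of 5.01 (2.09 ± 0.050, SE, adjusted p = 1.1e-07 in limma). Rxrb was at 19.7 and 19.5 FPKM in NSCs and at 19.5, 18.6 and 18.8 FPKM in STO cells. It did not pass the test (-0.046, 95% interval -0.17 to 0.075, adjusted p = 0.41 in limma), and its sign changed to 0.12 when all samples were scaled to the same total. Rxrg was at 0.0190 and 0.0520 FPKM in NSCs and at 0 in STO cells. Rxrb thus had the highest level of the RXRs in NSCs and Rxra in STO cells, there by a small margin. Ppard, a receptor that can also take up retinoic acid, differed by 0.25 ± 0.065 (SE, adjusted p = 0.010 in limma), from 19.3 to 23.1 FPKM.

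The enzymes that make retinoic acid were low in the cultures. Aldh1a3 (chromosome 7, 73535779 to 73572363, minus strand), known from the developing eye and nasal region, was at 2.78 and 2.88 FPKM in NSCs and at 0.0130, 0.0228 and 0.0428 FPKM in STO cells. The STO values stand for 1.0, 2.0 and 5.0 implied fragments, against 292.5 and 333.7 in NSCs. The difference was -1.90 ± 0.042 (SE, adjusted p = 7.3e-08 in limma) and depended on the pseudocount, with -4.54 for a pseudocount of 0.1, where Rarb was at -5.12 and Rarg at 3.79.

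Aldh1a1 (chromosome 19, 20676472 to 20717952, plus strand), known from the dorsal retina, midbrain neurons and many stem cells, was at 0.720 and 0.971 FPKM in NSCs and at 1.1999, 0.971 and 1.06 FPKM in STO cells. The groups met at 0.971 FPKM and the deposited intervals overlapped, from 0.507 to 0.932 in NSC replicate 1 and from 0.697 to 1.24 in STO replicate 2. The difference of 0.17 had a 95% interval of -0.018 to 0.36 and an adjusted p of 0.079 in limma. Neither no change nor a change within that interval was excluded. The call depended on the setting, with an adjusted p of 0.044 without NSC replicate 2, 0.016 after scaling all samples to the same total and 0.00011 after quantile normalization. Aldh1a2 (chromosome 9, 71063596 to 71144050, plus strand), the main enzyme of the early embryo and of the meninges, was at 0.0140 and 0 FPKM in NSCs and at 0, 0.0171 and 0 FPKM in STO cells, where each value above 0 stands for 1.0 fragment.

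The total of the 3 dehydrogenases was 3.51 and 3.85 FPKM in NSCs and 1.21, 1.01 and 1.10 FPKM in STO cells. Aldh1a3 made up 76.9% ± 3.1 (SD, n = 2) of it in NSCs and Aldh1a1 97.0% ± 1.6 (SD, n = 3) in STO cells. The remaining retinal dehydrogenase, Aldh8a1, was below 0.1 FPKM in all samples.

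The binding proteins were close to the limit of detection. Crabp1 (chromosome 9, 54612555 to 54620917, plus strand) was at 0.119 and 0.0724 FPKM in NSCs and at 0.0644, 0 and 0 FPKM in STO cells, and no sample had more than 2.1 implied fragments. Crabp2 (chromosome 3, 87752615 to 87757294, plus strand), which hands retinoic acid to the receptors in the nucleus, was at 0.177 and 0.0645 FPKM in NSCs and at 0.493, 0.559 and 0.452 FPKM in STO cells, from 5.0 and 2.0 fragments and from 9.6 to 14.0 fragments. All STO samples exceeded both NSC samples. In a fit of all genes with no minimum, where 46.6% were called, 21.9% as higher and 24.8% as lower, Crabp2 was higher in STO cells by 0.42 ± 0.060 (SE, adjusted p = 0.0087 in limma) and Crabp1 differed by -0.10 (95% interval -0.22 to 0.017, adjusted p = 0.14).

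Clearance fell to the last of the 9 genes. Cyp26b1 (chromosome 6, 84521408 to 84543902, minus strand), the enzyme that removes retinoic acid in limb mesenchyme and the gonad, was at 0.0812 and 0.0618 FPKM in NSCs and at 1.76, 1.67 and 1.53 FPKM in STO cells. The samples did not overlap, and the ratio of the means was 23.1, on 11.1 and 9.1 implied fragments in NSCs and 169.7 to 219.5 in STO cells. The difference was 1.31 ± 0.053 (SE, adjusted p = 1.3e-06 in limma). All of it was assigned to NM_001177713, and NM_175475 was listed at 0 in every sample. Of the other enzymes of this family, Cyp26a1 reached at most 0.0980 FPKM and Cyp26c1 at most 0.0187 FPKM.

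The other genes of the pathway were read from a list of 58, of which 32 were above the FPKM minimum. Of these 17 were higher in STO cells, 13 were lower and Dhrs4 and Rxrb did not pass, beside the 41.9% and 43.7% of all genes given above. The median difference was 0.33.

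The genes that carry, take up and store retinol were mostly below the minimum. Dgat1, which can form retinyl esters, fell from 12.1 to 10.0 FPKM on average (-0.25, adjusted p = 0.034 in limma), a call lost without either NSC replicate (adjusted p = 0.21 and 0.15) and after scaling to the same total (0.31). Below the minimum, the serum retinol carrier Rbp4 was at 1.12 and 0.687 FPKM in NSCs and at 0 in all STO samples, and the esterifying enzyme Lrat was at 0.250 and 0.239 FPKM in NSCs and at 0 in STO cells. The retinol uptake receptor Stra6 was at 0.0510 to 0.0841 FPKM over all samples.

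Enzymes that convert between retinol and retinaldehyde included some that were higher in NSCs and some that were higher in STO cells. Rdh10, the main retinol dehydrogenase of the embryo, was at 2.70 and 2.67 FPKM in NSCs and at 7.63, 8.34 and 7.67 FPKM in STO cells (1.27 ± 0.059, SE, adjusted p = 2.5e-06 in limma). Dhrs9 and Adh7, which also oxidise retinol, were listed at 0 in both NSC replicates and stood at 6.55 ± 0.24 and 20.8 ± 1.2 FPKM (SD, n = 3) in STO cells, and Rdh13 rose from 6.26 to 9.60 FPKM. In the other direction, Rdh5 was at 2.62 ± 0.10 FPKM (SD, n = 2) in NSCs and 0.465 ± 0.18 (SD, n = 3) in STO cells, and Rdh11 was at 26.2 ± 2.0 and 12.8 ± 0.59 FPKM. Rdh14 and Adh5 were lower in STO cells by 0.56 and 0.67 on the log2 scale, with adjusted p-values of 0.0022 and 0.00015 in limma, the former rising to 0.056 without NSC replicate 2. In all, 4 of the 10 genes tested from this list were higher and 5 were lower, beside 41.9% and 43.7% of all genes tested. Another 7 lay below the minimum. The list includes enzymes that reduce retinaldehyde.

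Dhrs3, which turns retinaldehyde back into retinol and is known to be induced by retinoic acid, was below the minimum, at 0.830 and 0.261 FPKM in NSCs and at 0, 0.0404 and 0.0299 FPKM in STO cells. Both NSC samples were above all STO samples, and they differed widely from each other, on 57.6 and 20.0 implied fragments. With no minimum its difference was -0.57 (95% interval -1.10 to -0.038, adjusted p = 0.083 in limma). Akr1b3, an aldose reductase that can reduce retinaldehyde, was called lower in STO cells (-3.23 ± 1.2, SE, adjusted p = 0.046 in limma), but it was listed at 0 in STO replicate 1 beside 14.1 and 17.5 FPKM in the others. The adjusted p was 0.25 without NSC replicate 1 and 0.26 without NSC replicate 2. Without STO replicate 1 the difference was -1.88 (adjusted p = 3.2e-05 in limma).

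All 8 corepressors and coactivators of nuclear receptors were tested. The corepressor Ncor1 was lower in STO cells, from 39.6 to 30.2 FPKM (-0.38 ± 0.059, SE, adjusted p = 0.00094 in limma), although its largest transcript taken alone was higher by 0.22 (adjusted p = 0.025). Ncoa1 was also lower, from 12.5 to 7.09 FPKM. Ncoa2, Ncoa3, Ep300 and the ligand-dependent corepressor Nrip1 were higher by 0.64 to 1.09, and Crebbp by 0.42 with an adjusted p of 0.049 that rose above 0.05 without STO replicate 1 (0.12), STO replicate 2 (0.12), NSC replicate 1 (0.30) or NSC replicate 2 (0.20), and fell to 0.00066 without STO replicate 3, the lowest of the STO samples.

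Of 13 genes known to respond to retinoic acid in embryos or cell lines, 9 were tested, 6 of which were higher and 3 lower in STO cells. Over all genes tested 85.7% were called, 41.9% as higher and 43.7% as lower. Hoxa5 was listed at 0 in both NSC replicates and was at 18.4 ± 0.14 FPKM (SD, n = 3) in STO cells. The nuclear receptor Nr2f2 was at 0.134 ± 0.093 FPKM (SD, n = 2) in NSCs and 71.8 ± 6.0 (SD, n = 3) in STO cells, and Nr2f1 at 24.9 ± 0.95 and 75.8 ± 2.7 FPKM. Tgm2, a transglutaminase, stood at 0.219 FPKM in NSCs and 8.09 FPKM in STO cells. The cofactors Meis1 and Meis2 went in opposite directions, Meis1 from 10.4 to 20.6 FPKM (0.92 ± 0.055, SE, adjusted p = 8.2e-06 in limma) and Meis2 from 26.9 to 10.9 FPKM (-1.23 ± 0.069, SE, adjusted p = 5.9e-06). Rarres1 and Zfp423 were lower in STO cells, by 1.37 and 2.05 on the log2 scale. Hoxb1, Stra8 and Rarres2 were listed at 0 in every sample. Many of these genes also mark position or lineage, and no sample here was treated with retinoic acid, so the list does not measure a response.

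**Figure D3:**
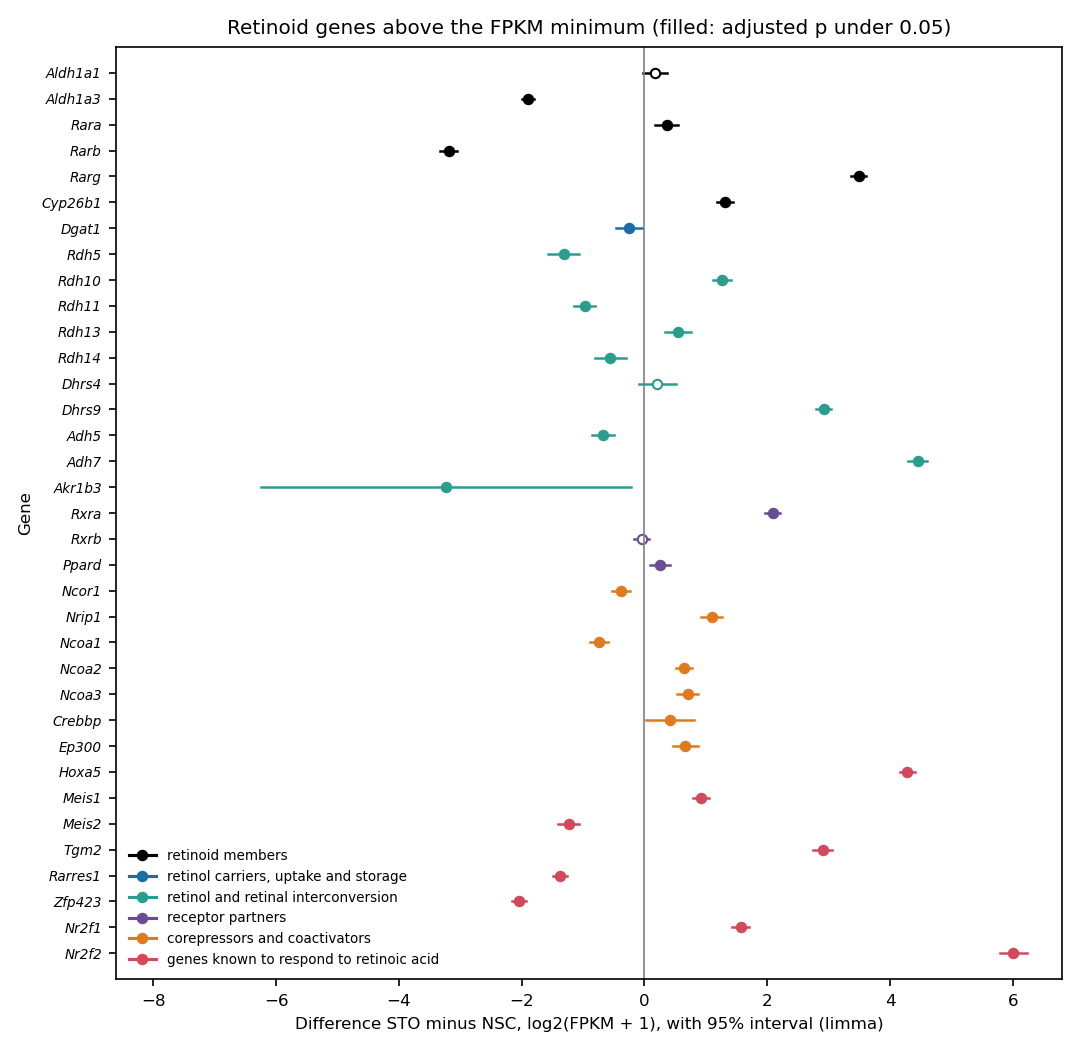
Difference STO minus NSC in log2(FPKM + 1) for the 6 retinoid members and the named pathway genes above the FPKM minimum, with 95% intervals from limma, filled points for adjusted p under 0.05 and colours for roles. Rarg, at 3.49, and Rarb, at -3.19, lie at opposite ends of the members, and the interval of Akr1b3, at 0 in STO replicate 1, is the widest.

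**Figure D4:**
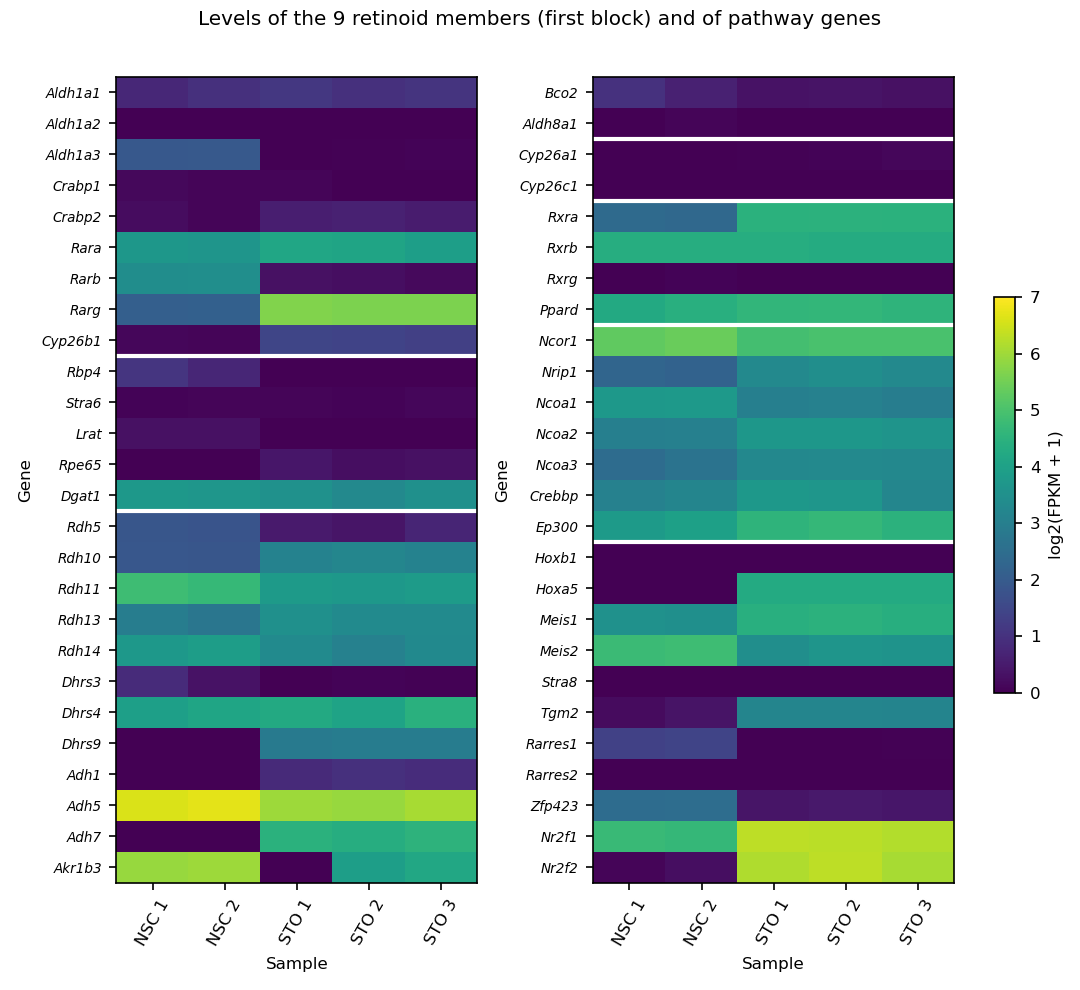
Colour map of log2(FPKM + 1) for the 9 retinoid members and the named pathway genes (rows, in blocks by role) in the 5 samples (columns). Replicates look alike within a cell type apart from Akr1b3 in STO replicate 1, and rows such as those of Adh7, Dhrs9, Hoxa5 and Nr2f2 are dark in NSCs alone.

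The genes with levels most like those of the leading receptor in each cell type were found by the Euclidean distance of log2(FPKM + 1) over the 5 samples, a description in which the cell types set most of the pattern. Nearest to Rara, the highest member in NSCs, were, among others, Sec16a and Ppil4, at distances of 0.13 and 0.16. Nearest to Rarg, the highest member in STO cells, were Antxr2, Col5a1 and Tpbg, at 0.20, 0.21 and 0.26. Col5a1, a collagen chain, was at 3.43 and 3.29 FPKM in NSCs and at 54.2, 52.6 and 50.7 FPKM in STO cells.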

How the data were processed

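RNA-seq of NSCs (2 replicates) and STO cells (3 replicates) was used, with groups and replicate numbers from the labels. By the methods and the submitters' processing notes, stranded mRNA libraries were read as paired ends, trimmed, aligned to mm9 with HISAT2 (version given as 4.8.2) and quantified with Cufflinks 2.2.1 on RefSeq. The authors deposited FPKM values per RefSeq transcript, with interval bounds in FPKM, so depth and length were already divided out and no read counts were used. Symbols came from a RefSeq table of GRCm38.p6, used for names only, which matched 99.4% of 40201 transcripts. Values were added per symbol. Positions are those of the files in mm9, with starts counted from 1, and strands come from GENCODE vM1. Implied fragments take the upper bound as the value plus 2 standard deviations of a Poisson count, which assumes counting error only. Where transcripts of a gene share exons the bounds may be wider, so these numbers, and the depth summed from them, are approximate. NM_001042727 of Rarg had 251.4 at 3.37 FPKM in NSC replicate 1 and 875.7 at 31.1 FPKM in STO replicate 1. No member transcript had a status other than OK.

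A two-sided moderated test with an intensity trend (limma 3.58.1, R 4.3.3) was run on log2(FPKM + 1), that is with a pseudocount of 1. It covered genes whose mean reached 1 FPKM in either cell type, and Benjamini-Hochberg adjusted p-values under 0.05 were called. The script was tested on simulated data. Python 3.11.15, numpy 2.4.6, pandas 2.3.3, scipy 1.17.1 and matplotlib 3.10.9 were used elsewhere. The members, the pathway list and the marker lists were chosen with earlier results of these data known. Named genes were the 9 members and their transcripts, pathway genes that passed the test or stand at the same step as a member, a few fixed partners (among them Dhrs3, Rdh10, Rxra, Rxrb and Rxrg) and the 3 genes nearest to the highest member of each cell type. Values of Akr1b3 without STO replicate 1 and transcripts tested singly were chosen after seeing the data. Aldh8a1, Hoxb1, Stra8, Rarres2, Dhrs4, Adh1, Bco2, Rpe65 and the marker genes fall outside this rule and were named after their values were seen. Some genes that the rule names are not reported here, though the counts include them.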

Additional observations from a re-analysis of the deposited data

How the results depend on the processing

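The comparison of cell types called 5147 genes as higher in STO cells and 5371 as lower. Alternatives changed the pseudocount (0.1), the FPKM minimum (none or 5), the scaling, the trend, the use of the largest transcript per symbol, the size required and the replicates. With an absolute log2 difference of 1 or more required as well, the counts were 2099 and 2613, and those of the pathway genes 10 and 5. With a mean of 5 FPKM or more required, 2 members were higher and 1 was lower, since Cyp26b1, Aldh1a3 and Aldh1a1 were no longer tested. Without any single replicate, 4703 to 5060 genes were higher and 4899 to 5248 lower, and the lone NSC sample of a fit without the other was assumed to vary like the STO samples. Of 75 refits of the 6 members tested, 70 kept direction and side of the threshold. Aldh1a1 passed with quantile normalization (0.64), scaling to the same total (0.26) and without NSC replicate 2 (0.27), and Rara did not pass with its largest transcript (0.19) or without NSC replicate 2 (0.33). Among 412 refits of pathway genes 389 kept direction and side of the threshold, 18 lost the call (Dgat1, Rdh14, Akr1b3 and Crebbp) and 2 gained it (Dhrs4). The sign changed in 3, for Dhrs4 (-0.27) and Ncor1 (0.22, past the threshold) with the largest transcript and Rxrb (0.12) with scaling to the same total. That scaling moved the median of all genes from -0.023 to 0.14. The cause of these changes was not tested.

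Both cell types have replicates numbered 1 and 2 and nothing pairs them. Deviations from the mean of the cell type correlated at 0.006 and 0.064 for equal numbers and from -0.064 to 0.055 for unequal ones. With 2 NSC replicates the deviations of NSCs mirror each other, so every correlation recurs with the opposite sign. These values therefore cannot decide whether replicates are paired. A replicate block gave 4988 genes as higher and 5249 as lower, with 3 members higher and 2 lower, and changed no call of a member. Replicate 3 exists in STO cells alone, so the block took up that sample entirely. The differences under the block therefore equalled those without STO replicate 3, with 0.43 for Rara in each. Depth limits Aldh1a2, Crabp1 and Crabp2 most, at 14.0 implied fragments or fewer per sample.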

Other observations

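A few other retinoid genes below the FPKM minimum differed in level between the cell types or between replicates. Bco2, a carotenoid cleaving enzyme, was at 1.01 and 0.573 FPKM in the NSC replicates and at 0.256, 0.280 and 0.252 FPKM in the STO replicates. Adh1, an alcohol dehydrogenase, was listed at 0 in both NSC replicates and was at 0.870 ± 0.089 FPKM (SD, n = 3) in STO cells. Rpe65, of the visual cycle, was also listed at 0 in NSCs and was at 0.259 ± 0.074 FPKM (SD, n = 3) in STO cells. All 3 lay below the minimum of the main test.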
